A study of Homo sapiens
Mus musculus with 8 samples.

Results

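The genes described here encode the proteins of the mitochondrial ribosome. They were taken by name, as all features whose symbol, after the species prefix, begins with MRPL or MRPS and a number in upper or lower case. The combined human and mouse gene list of 60736 features held 156 such genes, 79 of 32738 human and 77 of 27998 mouse ones. By symbol, 48 human and 48 mouse genes named a protein of the large subunit, and 30 human and 29 mouse genes one of the small subunit. The remaining human entry was MRPL23-AS1, an antisense RNA. MRPL30 and MRPS17 each stood in the human list under a pair of identifiers, so the 78 human protein entries held 76 different symbols.

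Mitochondria make a small set of inner membrane proteins of the respiratory chain on ribosomes of their own, whose RNAs come from mitochondrial DNA. All proteins of this ribosome are encoded in the nucleus, made in the cytosol and imported. Many descend from bacterial ribosomal proteins and keep their numbers, whereas others, mostly with higher numbers, were added in the mitochondrial lineage. The symbols do not always give the place of a protein. MRPS30 and MRPS18A name proteins found in the large subunit, and MRPS36 names a protein now placed in the oxoglutarate dehydrogenase complex. Counts by subunit below follow the symbols.

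The libraries were made with 10x Genomics Chromium kits from mixtures, in equal parts, of 4 established lymphocyte lines. Of the mouse lines, EL4 is a CD4 T lymphoma and IVA12 a B cell line. Of the human ones, Jurkat derives from a CD4 T cell leukaemia and TALL-104 from a leukaemia of CD8 T cells, which are small and grow with IL-2. No line carried a treatment. Per the study each line grew in a culture medium of its own, and TALL-104 was harder to culture. These conditions cannot be told apart from the line. Of 8 libraries in the labels 7 were used: 4 made with the 3′ v3 kit, 2 with 5′ v1 and 1 with 3′ v2 (replicate 2). Per the study's supplement the cells came from different mixtures, one behind 3′ v3 replicates 1 and 3, another behind 3′ v3 replicates 2 and 4, a further one behind both 5′ v1 libraries and one behind 3′ v2, so that kit and mixture cannot be told apart. Libraries of one mixture share its cultures, and p-values measure only the spread between these libraries, which may be technical.

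Totals ran from 24790710 to 251164949 UMIs (unique molecular identifiers, each 1 captured mRNA molecule) per library. Only barcodes with at least 1000 UMIs, over 80% of them from 1 species and under 10% from mitochondrial DNA, were used, and cells of 1 line in 1 library were summed. Lines were named from clusters by marker genes: the EL4 markers, 17 in the reference, summed to 2957 to 3677 CPM in EL4-like and 24.0 to 93.4 CPM in IVA12-like sums, and the 24 IVA12 markers to 3024 to 8999.5 CPM in IVA12-like and 108 to 212 CPM in EL4-like sums. The 28 TALL-104 markers summed to 9637 to 17399 CPM in TALL-104-like and 75.3 to 301 CPM in Jurkat-like sums. The 21 Jurkat markers, several of which any T cell expresses, stood at 5329 to 7176 CPM in Jurkat-like and still at 2626 to 3576 CPM in TALL-104-like sums, with 1 of them at 0 there. In addition, 1 IVA12 marker was at 0 in every IVA12-like sum and 1 TALL-104 marker in every TALL-104-like sum. In 3′ v3 replicates 1 and 3 the EL4-like cells included clusters of 186 and 231 cells led by the hypoxia genes Bnip3 and Adm. TALL-104-like barcodes were shallow, with median totals of 1951 to 2765 UMIs per library against 9244 to 18825 UMIs in Jurkat-like barcodes, and 1.23 to 14.6% of their UMIs were mouse against 0.45 to 3.79% in Jurkat-like barcodes. The part of this depth and of foreign RNA in the values was not tested. The 5′ v1 libraries held few TALL-104-like cells, 73 and 32.

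The first question was how much of the mRNA of each line the genes made up. Levels are given in CPM, UMIs of a gene per 1000000 UMIs of the cells' own species, which count molecules without a scaling by gene length. Human and mouse sums rest on different gene lists and are kept apart. Summed over the genes, IVA12-like cells stood above EL4-like cells and Jurkat-like above TALL-104-like cells in every library. EL4-like cells had 9277, 7953, 9359 and 8064 CPM in 3′ v3, in the order of replicates 1 to 4, 7154 and 6725 CPM in the 5′ v1 libraries and 9749 CPM in 3′ v2. IVA12-like cells had 13479, 9814, 13190.2 and 9789 CPM with 3′ v3, 12909.9 and 12462 CPM with 5′ v1 and 12433 CPM with 3′ v2. The ranges of the mouse lines did not overlap, though the highest EL4-like and the lowest IVA12-like sum nearly met. Jurkat-like cells had 10430.1, 5737, 10134 and 5541 CPM with 3′ v3, 9959 and 9582 CPM with 5′ v1 and 9929.9 CPM with 3′ v2. TALL-104-like cells had 5665, 4659, 5518 and 4471 CPM with 3′ v3, 5694 and 5672 CPM with 5′ v1 and 6311 CPM with 3′ v2. Cells over 3 times the median UMIs of their line are left out here, 8 of 40 TALL-104-like cells in 5′ v1 replicate 2. With them kept, the 5′ v1 sums were 5734 and 6434 CPM. Jurkat-like was higher within each library, but its 3′ v3 replicates 2 and 4 lay within the range of the TALL-104-like sums. As log2 ratios within a library, EL4 over IVA12 averaged −0.53 ± 0.25 (SD, n = 7) and Jurkat over TALL-104 averaged 0.65 ± 0.25 (SD, n = 7). No p is given for these sums.

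**Figure D1:**
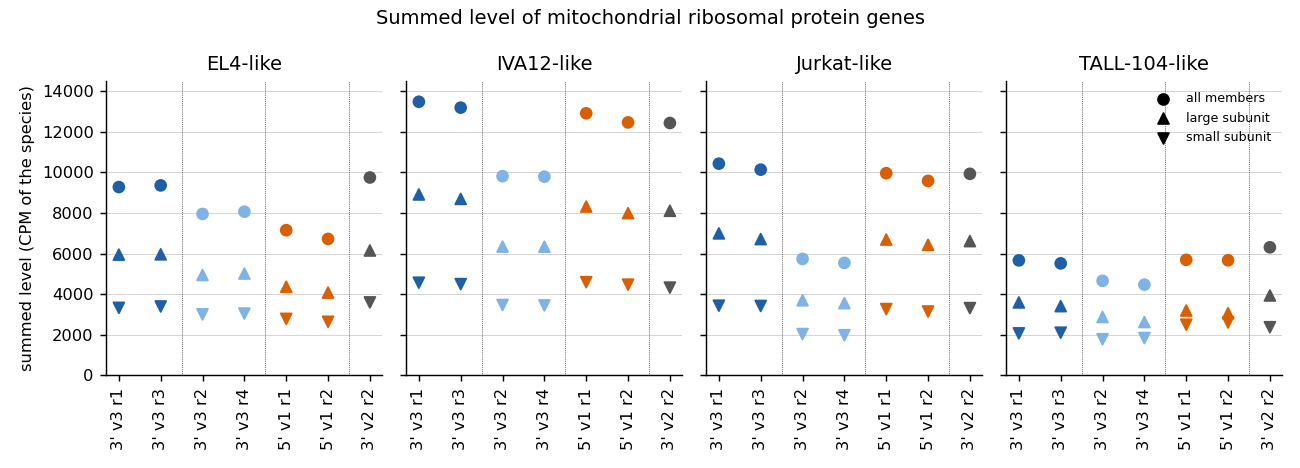
Summed level of mitochondrial ribosomal protein genes in each library (x axis: libraries by kit and replicate, r) for each line, in CPM of the cells' species (y axis from 0). Circles are all genes, triangles pointing up the large subunit and triangles pointing down the small subunit by symbol; dark blue and light blue mark the cell mixtures of 3′ v3, orange 5′ v1 and grey 3′ v2. IVA12-like sums lie above EL4-like sums in each library, and 3′ v3 replicates 2 and 4 lie below replicates 1 and 3 in all lines.

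Per cell, the median count of UMIs on these genes was 173 to 270.0 for EL4, 264 to 475 for IVA12, 48.0 to 184 for Jurkat and 10.0 to 16.0 for TALL-104 over the libraries. Barcodes were thinned to 1000 UMIs of both species together, so that total depth is equal. A median cell would then show 6.08 to 8.76 different genes of the set for EL4 and 8.76 to 11.8 for IVA12. It would show 4.98 to 9.31 for Jurkat and 3.80 to 5.33 for TALL-104. Depth in the cells' own species was lower, most so in TALL-104-like barcodes with their 1.23 to 14.6% of mouse UMIs. No barcode is left out by this thinning. Large subunit genes, the more numerous, summed to more than small subunit genes throughout. Their ratio was 1.67 ± 0.09 (SD, n = 7) for EL4, 1.86 ± 0.06 for IVA12 and 1.96 ± 0.11 for Jurkat. In TALL-104-like cells it was 1.502 ± 0.21, from 1.17 in 5′ v1 replicate 2 to 1.74 in 3′ v3 replicate 1, with both 5′ v1 libraries below all others. The part of single genes in this ratio was not tested. MRPS6 alone held a mean of 276 of the 1949 CPM of the small subunit in 3′ v3 and 656 of 2555 CPM in 5′ v1. MRPL41, of the large subunit, had a mean of 278 CPM in 3′ v3 and 136 CPM in 5′ v1.

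Single genes of the set differed widely in level within a line, although their proteins stand in the particle in equal numbers with few exceptions. The median over libraries ran from 1.04 to 398 CPM in EL4-like and from 0.91 to 549.7 CPM in IVA12-like cells, and the 5 highest genes held 18.6% and 20.2% of the sum. By this median Mrpl12 was the highest in both mouse lines, though not in each kit. Its protein forms the stalk that recruits translation factors and is the exception in number. The gene was at 318 to 464 CPM (median 398) in EL4-like and 415 to 581 CPM (median 549.7) in IVA12-like cells. In the mean of 5′ v1, Mrpl30 (394 CPM) and Mrps24 (356 CPM) stood above Mrpl12 (321 CPM) in EL4-like cells. Mrps24 (631 CPM) and Mrps14 (572 CPM) stood above Mrpl12 (555 CPM) there in IVA12-like cells. The other mouse genes of highest mean level were Mrps24, Mrpl33, Mrps14 and Mrpl20. Mrpl53 was the lowest, at 0.86 to 9.23 CPM (median 1.04) in EL4-like and 0.46 to 7.74 CPM (median 0.91) in IVA12-like cells, far below the next ones, Mrps27, Mrpl47, Mrpl39 and Mrps31, whose medians were 12.5 to 30.8 CPM in EL4-like and 20.6 to 30.7 CPM in IVA12-like cells. Among the human genes MRPL20 led by median in Jurkat-like cells, with 153 to 504 CPM (median 456). MRPS6, whose protein pairs with that of MRPS18C on the small subunit, led by median in TALL-104-like cells with 220.3 to 768 CPM (median 319). By the means of the kits in Jurkat-like cells, MRPL51 was above MRPL20 in 3′ v3 (346 against 310 CPM). MRPL23 was above it in 5′ v1 (477 against 450 CPM). In TALL-104-like cells MRPL41 and MRPS6 were nearly equal in 3′ v3, at 278 and 276 CPM. MRPL51, MRPL23 and MRPL41 completed the human genes of highest mean level, and MRPL49, MRPL39, MRPS24, MRPS17 (ENSG00000239789) and MRPL53 were the lowest of those tested. MRPL53 stood at 4.98 to 7.94 CPM (median 5.79) in Jurkat-like cells. MRPL23-AS1 and the second MRPL30 entry (ENSG00000273155) had at most 20 UMIs in any sum, the former 0 in all of them. MRPL30 (ENSG00000185414) reached 1.83 CPM and MRPS17 (ENSG00000249773) 0.77 CPM at most. Symbols with a pair of identifiers may share reads, so their levels are uncertain.

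The mouse lines were compared within libraries, to ask which of the genes differed between a T and a B cell line captured in the same libraries. Genes of the mitochondrial ribosome were mostly lower in EL4-like than in IVA12-like cells. Of 77 genes, all of which passed the filter on low counts, 40 fell and 7 rose past an adjusted p of 0.05 (edgeR's quasi-likelihood test with Benjamini-Hochberg adjustment over 11659 mouse genes), and 30 did not pass. Among all mouse genes tested 38.8% were lower and 38.9% higher in EL4-like cells. The median log2 fold change was −0.29 over the genes of the set and −0.01 over all genes tested. The large subunit had 27 genes lower and 4 higher of 48 and the small subunit 13 lower and 3 higher of 29. Genes with bacterial numbers had 22 lower and 4 higher of 44, and those with higher numbers 18 lower and 3 higher of 33.

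The genes that fell furthest came from both subunits, and those of the large subunit are given first. Mrpl34, a short protein of bacterial descent, was at 38.0 to 114 CPM (median 104) in EL4-like and 343 to 425 CPM (median 351) in IVA12-like cells (log2 fold change −2.09 ± 0.20 (SE), adjusted p = 3.51e-06). Mrpl17, a conserved large subunit protein, was at 83.9 to 135 CPM (median 94.5) in EL4-like and 245 to 512 CPM (median 399) in IVA12-like cells (log2 fold change −1.68 ± 0.15 (SE), adjusted p = 1.94e-06). Mrpl22, which lines the exit tunnel of the nascent chain, was at 29.6 to 77.8 CPM (median 48.6) in EL4-like and 113 to 224 CPM (median 154) in IVA12-like cells (log2 fold change −1.58 ± 0.14 (SE), adjusted p = 1.71e-06). In none of these genes did the lines overlap over the 7 libraries. Mrpl24, an early assembly protein, was at 23.2 to 40.0 CPM (median 31.8) in EL4-like and 59.9 to 138 CPM (median 100.3) in IVA12-like cells (log2 fold change −1.53 ± 0.14 (SE), adjusted p = 2.92e-06). Mrpl57, a protein without a bacterial counterpart, was at 126 to 172 CPM (median 158) in EL4-like and 373 to 559 CPM (median 464) in IVA12-like cells (log2 fold change −1.51 ± 0.06 (SE), adjusted p = 1.15e-08). Mrpl47, which stands near the tunnel exit, was at 6.39 to 13.9 CPM (median 12.5) in EL4-like and 21.9 to 48.1 CPM (median 30.7) in IVA12-like cells (log2 fold change −1.43 ± 0.12 (SE), adjusted p = 1.09e-06). In each of these the ranges were also apart, and Mrpl57 had the largest change for its error among the mouse genes of the set. Of the small subunit, the largest falls were in Mrps35 and Mrps14. Mrps35, a mitochondrial addition, was at 57.7 to 78.3 CPM (median 72.8) in EL4-like and 132 to 299 CPM (median 259) in IVA12-like cells (log2 fold change −1.54 ± 0.13 (SE), adjusted p = 1.31e-06). Mrps14, a protein of the head of the small subunit, was at 157 to 233 CPM (median 182) in EL4-like and 339 to 579.9 CPM (median 531) in IVA12-like cells (log2 fold change −1.26 ± 0.09 (SE), adjusted p = 4.35e-07). Mrps18b, which shares a bacterial ancestor with Mrps18a and Mrps18c, fell as well (log2 fold change −1.12 ± 0.11 (SE), adjusted p = 3.09e-06), whereas Mrps18a (−0.04 ± 0.13) and Mrps18c (0.02 ± 0.13) did not pass the test. The difference among the paralogues was not tested.

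The 4 genes that were higher in EL4-like cells in all 7 libraries were Mrps36, Mrps16, Mrps6 and Mrpl54. Mrps36 was at 150.4 to 286 CPM (median 167) in EL4-like and 73.8 to 129.7 CPM (median 95.3) in IVA12-like cells (log2 fold change 0.99 ± 0.08 (SE), adjusted p = 7.11e-07). Mrps16, an early small subunit protein, was at 178 to 283 CPM (median 258) in EL4-like and 102 to 167 CPM (median 129) in IVA12-like cells (log2 fold change 0.96 ± 0.10 (SE), adjusted p = 4.88e-06). The lines did not overlap in either gene. Mrps6 (log2 fold change 0.44 ± 0.07 (SE), adjusted p = 2.45e-04) and Mrpl54 (log2 fold change 0.40 ± 0.06 (SE), adjusted p = 1.76e-04) differed less, and for both the ranges overlapped between the lines while each library had the same direction. Mrpl14, Mrpl19 and Mrpl53 also passed the test, but in 5 of 7, 5 of 7 and 6 of 7 libraries only. Of the genes followed by name, Mrpl12 (log2 fold change −0.29 ± 0.11 (SE), adjusted p = 0.0268) and Mrpl11, at the base of the same stalk (log2 fold change −0.29 ± 0.10 (SE), adjusted p = 0.0183), were lower in EL4-like cells in 7 of 7 libraries. Mrps12, of the decoding site (−0.18 ± 0.16), Mrpl41 (0.00 ± 0.17), Mrpl44 (−0.17 ± 0.10) and Mrps30 (−0.18 ± 0.09), given as log2 fold changes ± SE, did not pass. Within single libraries, 72 and 70 of the 77 genes were lower in EL4-like cells in 5′ v1, 66 and 63 in 3′ v3 replicates 1 and 3, 46 and 47 in 3′ v3 replicates 2 and 4, and 55 in 3′ v2. The share of all genes that were lower in each library was not computed, so these counts cannot be set against it. Scaled to total counts without TMM, the median log2 fold change was −0.38 over the set and −0.10 over all genes. A model without the library term called 27 genes lower (29.2% of all genes) and 2 higher (30.1%), and the 3′ v3 libraries alone gave 37 lower (38.5%) and 14 higher (41.0%), with a median of −0.16 over the set. Without both 5′ v1 libraries the median was −0.17, and with the libraries of 1 mixture summed 28 genes were lower (31.1% of all genes) and 6 higher (34.4%).

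**Figure D2:**
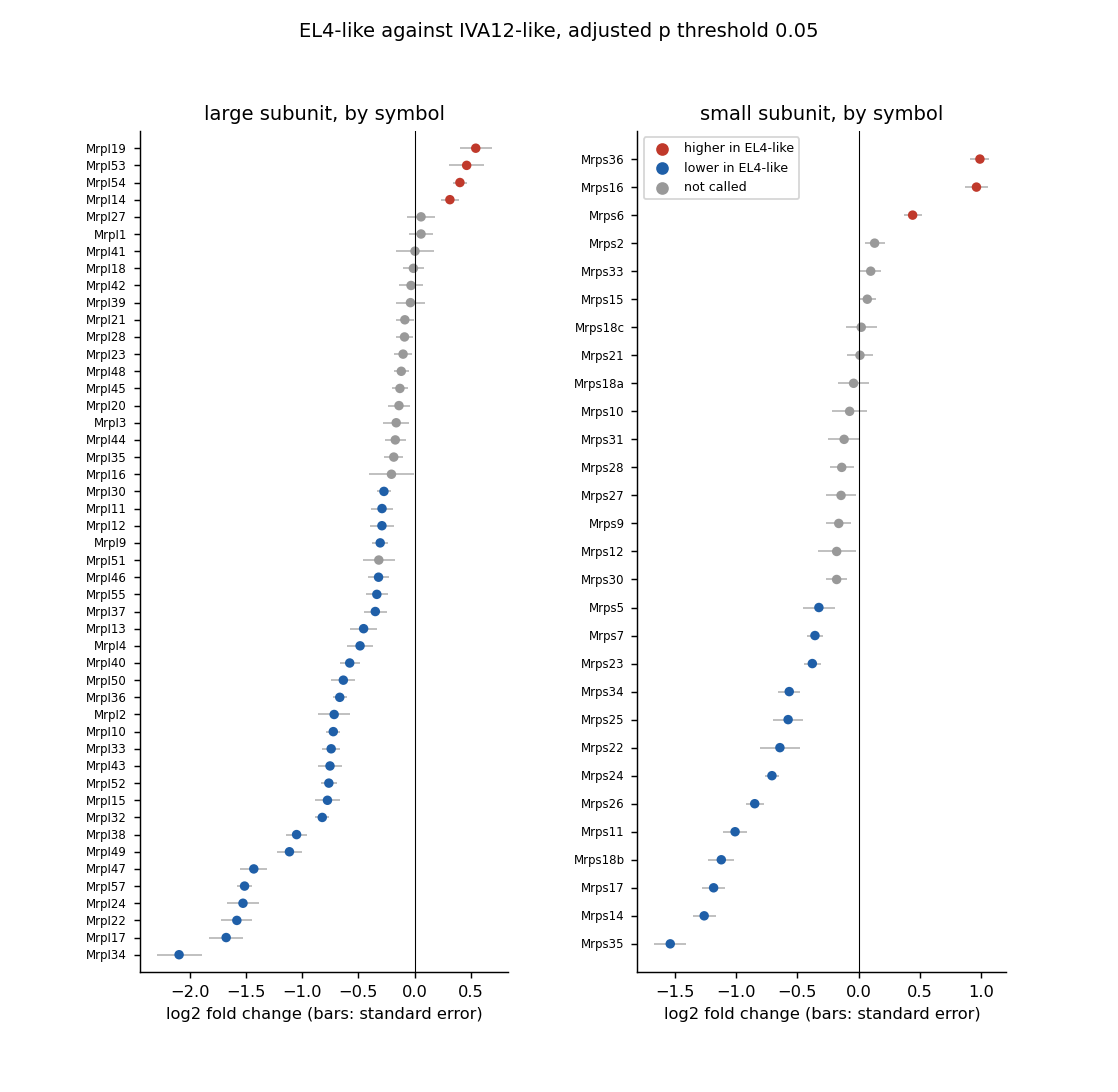
Log2 fold change (x axis) of each mouse gene of the set, EL4-like against IVA12-like, with bars of 1 standard error, for large subunit (left) and small subunit (right) symbols. Blue points are called lower in EL4-like cells (27 and 13), red points called higher (4 and 3) and grey points not called. Most points lie left of 0, down to −2.09 for Mrpl34, and the highest is Mrps36 at 0.99.

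The same question for the human lines compared Jurkat-like with TALL-104-like cells. Genes of the mitochondrial ribosome were mostly higher in Jurkat-like cells. Of 79 genes 74 passed the filter on low counts, and of these 53 rose and 4 fell in Jurkat-like cells (edgeR, adjusted over 9745 human genes), while 17 did not pass. Among all human genes tested 34.1% were higher and 30.4% lower. The median log2 fold change was 0.67 over the genes of the set and 0.07 over all genes tested. The filter removed MRPL38, MRPS17 (ENSG00000249773), both MRPL30 entries and MRPL23-AS1. The large subunit had 31 genes higher and 3 lower of 45 tested and the small subunit 22 higher and 1 lower of 29. Genes with bacterial numbers had 34 higher and 1 lower of 43 and the others 19 higher and 3 lower of 31.

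Most of the genes that rose furthest belonged to the large subunit, as did 45 of the 74 genes tested. MRPL37, a mitochondrial addition related to MRPS30, was at 93.7 to 244 CPM (median 171) in Jurkat-like and 27.3 to 71.1 CPM (median 43.9) in TALL-104-like cells (log2 fold change 1.87 ± 0.20 (SE), adjusted p = 2.34e-08). MRPL11, of the stalk base, was at 166 to 401 CPM (median 306) in Jurkat-like and 59.4 to 135 CPM (median 75.2) in TALL-104-like cells (log2 fold change 1.69 ± 0.16 (SE), adjusted p = 4.38e-09). MRPL21, a conserved large subunit protein, was at 78.7 to 182 CPM (median 125) in Jurkat-like and 18.6 to 54.1 CPM (median 39.6) in TALL-104-like cells (log2 fold change 1.53 ± 0.18 (SE), adjusted p = 1.17e-07). For these genes the lines did not overlap over the 7 libraries. MRPL23, near the tunnel exit, was at 190.2 to 481 CPM (median 370.1) in Jurkat-like and 77.5 to 144 CPM (median 115) in TALL-104-like cells (log2 fold change 1.38 ± 0.16 (SE), adjusted p = 9.87e-08). MRPL22, of the exit tunnel, was at 105 to 203 CPM (median 129.6) in Jurkat-like and 34.5 to 78.2 CPM (median 57.2) in TALL-104-like cells (log2 fold change 1.33 ± 0.16 (SE), adjusted p = 1.64e-07). MRPL32, a subunit that a mitochondrial protease matures, was at 56.8 to 122 CPM (median 91.3) in Jurkat-like and 24.9 to 43.6 CPM (median 32.9) in TALL-104-like cells (log2 fold change 1.31 ± 0.16 (SE), adjusted p = 2.90e-07). The ranges of these genes were apart too. MRPS9, of the small subunit, was at 36.4 to 89.1 CPM (median 51.8) in Jurkat-like and 14.2 to 25.2 CPM (median 21.9) in TALL-104-like cells (log2 fold change 1.47 ± 0.18 (SE), adjusted p = 2.23e-07). MRPL12, the stalk protein, was higher in Jurkat-like cells in the 5 libraries of the 3′ kits (log2 fold change 1.28 ± 0.18 (SE), adjusted p = 1.79e-06). The 5′ v1 libraries give no direction for it, since it had 0 UMIs in TALL-104-like cells there and stood at 9.56 and 7.89 CPM in Jurkat-like cells. Across alternatives its adjusted p lay between 1.05e-12 and 0.1096.

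MRPS6 and MRPL54 went the other way in all 7 libraries. MRPS6 was at 51.8 to 182 CPM (median 154) in Jurkat-like and 220.3 to 768 CPM (median 319) in TALL-104-like cells (log2 fold change −1.64 ± 0.16 (SE), adjusted p = 6.37e-09). The lines did not overlap for MRPS6. MRPL54, a protein without a bacterial counterpart, was at 67.4 to 115 CPM (median 82.9) in Jurkat-like and 87.8 to 187 CPM (median 124) in TALL-104-like cells (log2 fold change −0.72 ± 0.16 (SE), adjusted p = 6.18e-04). MRPL41 (log2 fold change −0.67 ± 0.20 (SE), adjusted p = 0.00543) and MRPL49 (log2 fold change −0.48 ± 0.18 (SE), adjusted p = 0.027) were also lower, each in 5 of 7 libraries. Of the paralogues, MRPS18A (0.85 ± 0.18), MRPS18B (0.47 ± 0.16) and MRPS18C (0.62 ± 0.16), given as log2 fold changes ± SE, all rose. MRPL44 (0.33 ± 0.18), MRPS30 (0.34 ± 0.17), MRPS36 (0.24 ± 0.16) and MRPS12 (0.16 ± 0.20) did not pass. Within single libraries, 69 and 71 of the 74 genes were higher in Jurkat-like cells in 3′ v3 replicates 1 and 3, 57 and 60 in replicates 2 and 4, 63 in 3′ v2 and 66 and 64 in 5′ v1. Here too the share of all genes that were higher in each library was not computed. A model without the library term called 35 genes higher (26.9% of all genes) and 1 lower (23.7%). Scaled to total counts without TMM, the median of all genes moved from 0.07 to 0.20 and that of the set from 0.67 to 0.80, with 58 higher (38.7% of all genes) and 3 lower (26.3%). With the libraries of 1 mixture summed, 42 of 75 genes were higher (28.9% of all genes) and 2 lower (24.6%), with a median of 0.68.

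**Figure D3:**
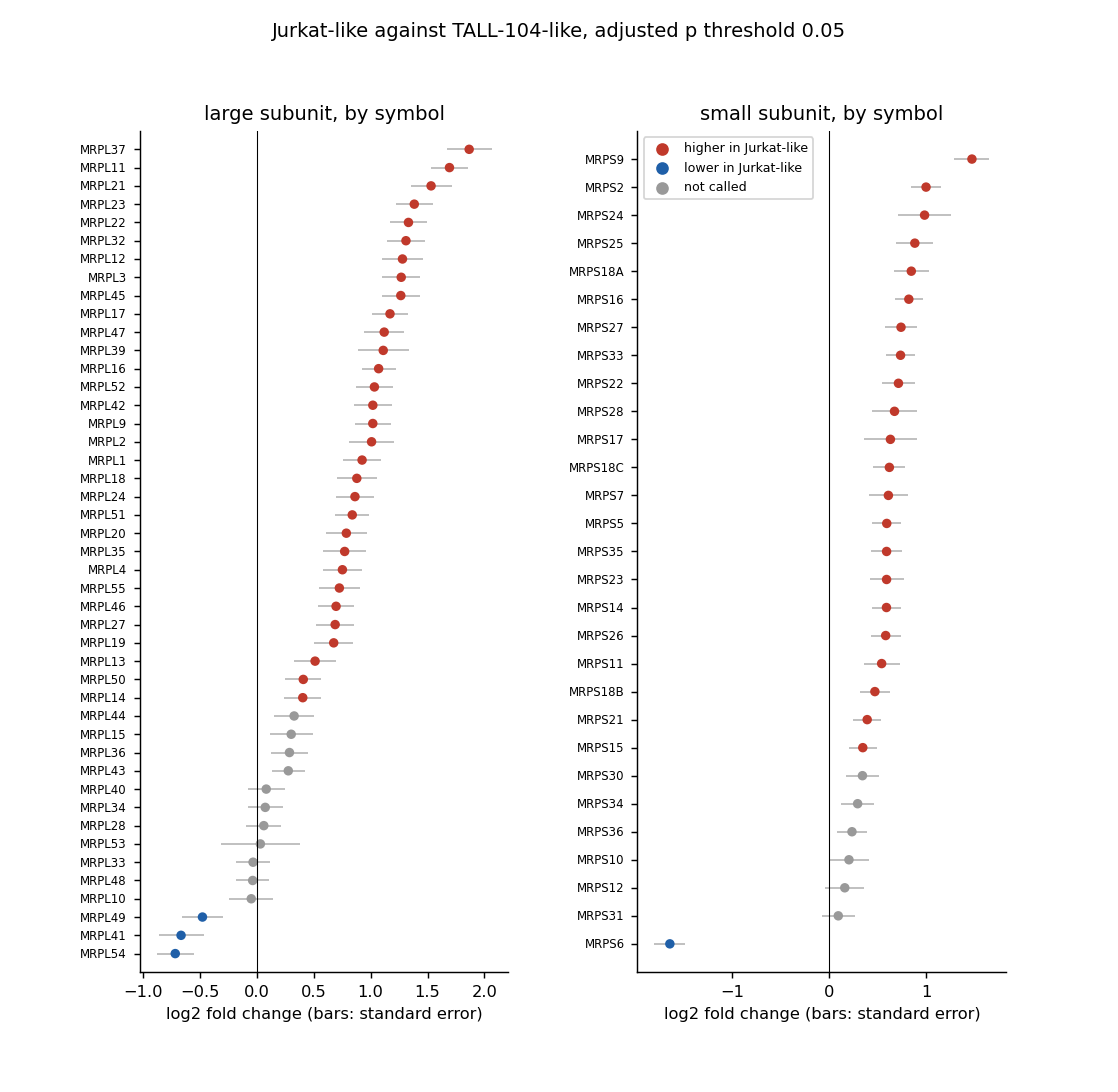
Log2 fold change (x axis) of each human gene of the set that was tested, Jurkat-like against TALL-104-like, with bars of 1 standard error, for large subunit (left) and small subunit (right) symbols. Red points are called higher in Jurkat-like cells (31 and 22), blue points called lower (3 and 1) and grey points not called. MRPL37 lies furthest right at 1.87 and MRPS6 furthest left at −1.64.

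Other genes of mitochondrial translation were counted by lists. In the mouse comparison, where 38.9% of all genes were higher and 38.8% lower in EL4-like cells, mitoribosome proteins with other symbols had 1 of 6 higher and 1 lower in EL4-like cells, Dap3 and Ptcd3. Assembly factors had 2 higher and 13 lower of 20, led by Noa1 (−2.25 ± 0.10), Mettl17 (−1.40 ± 0.12) and Eral1 (−1.23 ± 0.08), a GTPase, a methyltransferase-like protein and a GTPase that act on the small subunit, given as log2 fold changes ± SE. Translation factors had 2 higher and 8 lower of 15, with the membrane insertase gene Oxa1l (−0.94 ± 0.08) in front. Mitochondrial tRNA synthetases had 4 higher and 7 lower of 17, with Tars2 (−1.79 ± 0.12) among the latter. Of 4 mitochondrial transcription genes 3 were lower, Tfb2m (−1.19 ± 0.12), Tefm (−0.98 ± 0.11) and Polrmt (−0.69 ± 0.10), and 1 higher. The mRNAs of mitochondrial DNA had 3 higher and 5 lower of 12, among them mt-Co1 at 0.74 ± 0.10 and mt-Nd6 at −1.42 ± 0.22. Their levels in all comparisons are bounded by the choice of barcodes, which kept those under 10% of UMIs from mitochondrial DNA. In the human comparison, where 34.1% of all genes were higher and 30.4% lower in Jurkat-like cells, all 7 mitoribosome proteins with other symbols were higher in Jurkat-like cells, with MRP63 (1.04 ± 0.17), the human counterpart of Mrpl57 under an older symbol, GADD45GIP1 (0.90 ± 0.15) and DAP3 (0.84 ± 0.16). Assembly factors had 10 higher and 3 lower of 21, led by MALSU1 (1.53 ± 0.21), which keeps immature large subunits from joining, and MTERFD1 (1.35 ± 0.23). Translation factors had 8 higher and 2 lower of 16, led by SLIRP (1.91 ± 0.20), an RNA-binding partner of LRPPRC. tRNA synthetases had 8 higher and 0 lower of 16, led by VARS2 (1.58 ± 0.30). Mitochondrial transcription had 1 higher, TFAM (0.71 ± 0.22), and 1 lower, TEFM (−0.65 ± 0.18), of 4. The mRNAs of mitochondrial DNA had 4 higher and 1 lower of 13, with MT-ND6 at 1.81 ± 0.17 and MT-CO1 at −0.67 ± 0.20. Median log2 fold changes were −0.50 for assembly factors and −0.05 for the mRNAs of mitochondrial DNA in the mouse comparison, and 0.46 and 0.32 in the human one. The counts of lower genes among the mouse tRNA synthetases and mRNAs of mitochondrial DNA, and of higher genes among the human mRNAs of mitochondrial DNA, lay near the shares over all genes.

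Within the 3′ v3 kit the level of the genes followed the cell mixture. In all lines the summed levels of replicates 1 and 3, from one mixture, stood above those of replicates 2 and 4, from the other. The libraries of a mixture are loads of the same cells, so this is given without a test. The summed level of replicates 1 and 3 over that of 2 and 4 was 1.16-fold for EL4, 1.36-fold for IVA12, 1.82-fold for Jurkat and 1.22-fold for TALL-104. Among genes of at least 10 CPM, both libraries of the first mixture were above both of the second for 63 of 76 members in EL4-like cells (27.8% of all genes), 66 of 76 in IVA12-like (34.9%), 69 of 73 in Jurkat-like (34.1%) and 44 of 72 in TALL-104-like cells (18.9%). Both were below for 9, 6, 0 and 5 members (60.8%, 55.5%, 51.5% and 52.2% of all genes). The median log2 ratio was 0.25, 0.52, 0.91 and 0.35 over the members in that order, and −0.28, −0.21, −0.20 and −0.38 over all genes, so on this scale the typical gene moved the other way. MRPL20 in Jurkat-like cells had one of the larger steps, with 456, 154, 477 and 153 CPM over the 4 libraries of 3′ v3, 458 and 443 CPM with 5′ v1 and 504 CPM with 3′ v2. Replicates 2 and 4 were low and all others alike. MRPL36, whose ratio lay near the median, had 142, 73.7, 126 and 69.3 CPM in 3′ v3. MRPS36 moved less in the same cells, with 120.0, 111, 114 and 94.1 CPM in 3′ v3. Mrpl57 in IVA12-like cells went the other way, with 379, 465, 373 and 464 CPM, and so did Mrps5, with 118, 179, 147 and 183 CPM. The cells of replicates 2 and 4 also differed in other measures. In Jurkat-like cells median totals were 10247.5 and 9244 UMIs against 17675 and 17433.5 UMIs in replicates 1 and 3, and 8.44% and 8.06% of their UMIs came from mitochondrial DNA against 6.17% and 4.76%. The mitochondrial share was higher in replicates 2 and 4 in the other lines too, at 6.58% and 6.62% against 5.67% and 4.26% in EL4-like, 6.53% and 6.87% against 5.76% and 4.34% in IVA12-like and 8.30% and 8.20% against 7.39% and 4.80% in TALL-104-like cells. All these shares are of barcodes kept under the limit of 10%. Median totals in IVA12-like cells were also lower, at 27186.5 and 29083 against 35345 and 33649 UMIs. They were alike in EL4-like cells, at 29462 and 27455 against 29465 and 28403 UMIs, and higher in TALL-104-like cells, at 2730.5 and 2495 against 1951 and 2115.5 UMIs. With a mitochondrial limit of 20% the summed levels of Jurkat-like cells in replicates 2 and 4 were 5854 and 5639 CPM. The part of these measures in the difference was not tested.

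**Figure D4:**
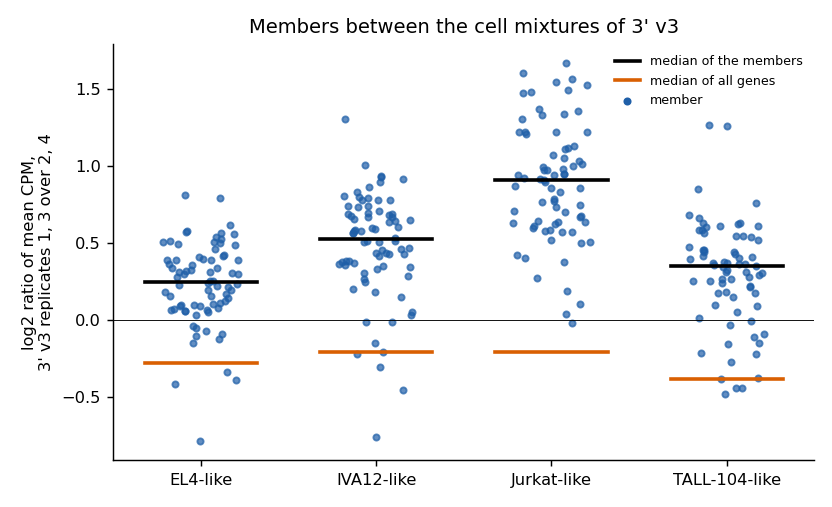
Log2 ratio of mean CPM in 3′ v3 replicates 1 and 3 to mean CPM in replicates 2 and 4 (y axis) for each gene of the set of at least 10 CPM (points, spread sideways for sight), in each line (x axis). Black bars are the medians of the members, 0.25, 0.52, 0.91 and 0.35 from left to right, and orange bars the medians of all genes, all below 0.

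Kits were compared within lines, 3′ v3 (n = 4) against 5′ v1 (n = 2), to see how the end of the mRNA that is counted bears on these genes. The spread between the mixtures of 3′ v3 entered the error of this comparison. In EL4-like cells 18 genes of the set were higher in 3′ v3, where 19.2% of all genes were, and 4 were lower, where 17.4% were, of 77 tested. In IVA12-like cells 1 was higher (4.29% of all genes) and 1 lower (4.77%). In Jurkat-like cells 1 of 76 was higher (7.93%) and 2 lower (8.23%), and in TALL-104-like cells 1 of 73 was higher (2.73%) and 0 lower (2.01%). Scaled to total counts without TMM, the calls were 30 higher and 5 lower in EL4-like (20.2% and 14.1% of all genes), 2 and 4 in IVA12-like (4.36% and 5.77%), 2 and 2 in Jurkat-like (5.90% and 7.10%) and 1 and 1 in TALL-104-like cells (1.72% and 2.42%). At an unadjusted p under 0.05, 8 genes of the set passed in TALL-104-like cells, where the share of all genes at that threshold was not computed. DESeq2 called 1 of 73 higher and 1 lower there, and 184 and 170 of all 8363 genes. Medians of the log2 fold change were 0.37, 0.0015, −0.31 and 0.0028 over the members in these lines in turn and 0.06, 0.02, 0.02 and 0.11 over all genes. With 5′ v1 replicate 1 left out the calls in either direction were 3, 0, 1 and 0 in these lines (12.5%, 0.178%, 0.594% and 0.0918% of all genes), and with replicate 2 left out 2, 0, 1 and 0 (9.02%, 0.324%, 1.2% and 0.431%), where the lone 5′ v1 library is assumed to vary like the 3′ v3 ones. The share called was thus also lower over all genes. With 3′ v3 replicates 1 and 3 alone, the calls were 61 higher and 5 lower for EL4, 46 and 9 for IVA12, 34 and 8 for Jurkat and 10 and 1 for TALL-104. Of all genes, 33.6% were higher and 32.9% lower there in EL4-like, 29.4% and 30.0% in IVA12-like, 29.8% and 29.7% in Jurkat-like and 9.83% and 7.52% in TALL-104-like cells. With replicates 2 and 4 alone the calls were 23 and 25, 8 and 57, 2 and 65, and 2 and 15, against 35.2% and 35.8%, 34.1% and 32.2%, 33.1% and 34.0%, and 19.1% and 18.4% of all genes, so that in EL4-like cells both counts lay near those of all genes.

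A few genes differed between 3′ v3 and 5′ v1 by more than the mixtures of 3′ v3 differed from each other, though 5′ v1 also had a mixture of its own. The human stalk gene MRPL12 was low in 5′ v1. In Jurkat-like cells it stood at 170.1, 77.4, 126 and 69.6 CPM over the 4 libraries of 3′ v3, 9.56 and 7.89 CPM with 5′ v1 and 128 CPM with 3′ v2 (log2 fold change 3.68 ± 0.61 (SE), adjusted p = 0.00955, edgeR). All 3′ libraries were high, 3′ v2 included, and both 5′ v1 libraries low, with a mean 12.7-fold lower. In TALL-104-like cells it stood at 51.3, 42.1, 36.9 and 36.04 CPM in 3′ v3, 49.8 CPM in 3′ v2 and 0 in both 5′ v1 libraries. The latter held 306475 human UMIs in these cells, in which 3 UMIs over the kit would be 9.79 CPM, so the mean of 3′ v3, 41.6 CPM, was at least 4.25-fold higher. MRPL12 passed the filter on low counts in these cells only through 3′ v3, where it was high, so its call there adds no support. The mouse gene did not pass the test, with 415, 398, 409 and 393 CPM in 3′ v3 and 318 and 323 CPM in 5′ v1 in EL4-like cells (log2 fold change 0.28 ± 0.20 (SE), adjusted p = 0.293). MRPL38 in Jurkat-like cells went the other way, with 1.85, 2.50, 2.95 and 2.25 CPM over the 4 libraries of 3′ v3, 19.5 and 17.3 CPM with 5′ v1 and 1.79 CPM with 3′ v2 (log2 fold change −2.90 ± 0.25 (SE), adjusted p = 0.00135). It was low in both 3′ kits and 7.70-fold higher in the mean of 5′ v1. With either 5′ v1 library left out MRPL12 was not called, and its adjusted p reached 0.12 in Jurkat-like and 0.316 in TALL-104-like cells over the alternatives run, against at most 0.0356 for MRPL38 (edgeR or DESeq2). MRPL30 (ENSG00000185414) followed it at a level near the limit of detection, with 0.17, 0.62, 0.30 and 0 CPM over the 4 libraries of 3′ v3, 1.81 and 1.83 CPM with 5′ v1 and 0.77 CPM with 3′ v2 (log2 fold change −2.84 ± 0.51 (SE)). It passed the filter on low counts mainly through 5′ v1, where it was high, so its call adds no support. It was not called with either 5′ v1 library left out, where its adjusted p reached 0.164 (edgeR).

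In the mouse lines Mrpl53, of the large subunit, was higher in 5′ v1. EL4-like cells had 0.86, 0.89, 1.04 and 0.98 CPM over the 4 libraries of 3′ v3, 8.20 and 9.23 CPM with 5′ v1 and 2.47 CPM with 3′ v2 (log2 fold change −3.22 ± 0.20 (SE), adjusted p = 4.79e-04). IVA12-like cells had 0.90, 0.64, 0.91 and 0.46 CPM over the 4 libraries of 3′ v3, 6.61 and 7.74 CPM with 5′ v1 and 1.39 CPM with 3′ v2 (log2 fold change −3.18 ± 0.33 (SE), adjusted p = 0.00418). The kits were apart in both lines, with 9.25-fold and 9.84-fold higher means in 5′ v1. Mrps5, a conserved small subunit protein, was higher in 3′ v3, with 106, 163, 145 and 171 CPM over the 4 libraries of 3′ v3, 44.7 and 36.2 CPM with 5′ v1 and 198 CPM with 3′ v2 in EL4-like cells (log2 fold change 1.77 ± 0.21 (SE), adjusted p = 0.00134). In IVA12-like cells it had 118, 179, 147 and 183 CPM over the 4 libraries of 3′ v3, 88.9 and 77.9 CPM with 5′ v1 and 269 CPM with 3′ v2 (log2 fold change 0.92 ± 0.18 (SE), adjusted p = 0.0276). The 3′ v2 library lay nearer to 3′ v3 for both genes. In EL4-like cells Mrpl53 and Mrps5 were called under each alternative run, with adjusted p of at most 0.0159 and 0.0314, but in IVA12-like cells neither was called with either 5′ v1 library left out, and Mrps5 also lost its call without 3′ v3 replicate 2, 3 or 4 in turn. The other genes called higher in 3′ v3 in EL4-like cells with libraries that did not overlap were led by Mrps31 (1.68 ± 0.38), Mrps22 (1.67 ± 0.34), Mrpl19 (1.49 ± 0.29), Mrpl16 (1.48 ± 0.32), Mrpl46 (1.42 ± 0.28), Mrpl34 (1.36 ± 0.22) and Mrps25 (1.17 ± 0.23), as log2 fold changes ± SE. Mrpl30 (−0.86 ± 0.20), Mrps24 (−0.54 ± 0.17) and Mrpl10 (−0.51 ± 0.14) were the others called lower. With 5′ v1 replicate 1 left out Mrps5 and Mrpl34 alone were still called higher and Mrpl53 lower, and with replicate 2 left out Mrps5 and Mrpl53 alone were called. The mRNAs of mitochondrial DNA had 3 higher and 1 lower of 12 in 3′ v3 in EL4-like cells (19.2% and 17.4% of all genes). The count of higher genes lay near that share. They had 1 and 0 of 12 in IVA12-like (4.29% and 4.77%) and 2 and 1 of 13 in Jurkat-like cells (7.93% and 8.23%). In TALL-104-like cells they had 5 and 1 of 13 (2.73% and 2.01%), with a median log2 fold change of 1.58. These levels too come from barcodes kept under 10% mitochondrial UMIs. MT-ND3 was higher in 3′ v3 in Jurkat-like (2.44 ± 0.24) and TALL-104-like cells (3.57 ± 0.46) and MT-ND4L lower (−2.88 ± 0.31 and −2.88 ± 0.36). The tRNA synthetases had 7 higher and 1 lower of 17 in EL4-like cells (19.2% and 17.4% of all genes), with a median of 0.51. They had 0 and 1 of 17 in IVA12-like (4.29% and 4.77%) and 0 and 2 of 17 in Jurkat-like cells (7.93% and 8.23%). In TALL-104-like cells 0 and 0 of 9 tested were called (2.73% and 2.01%). The gene called lower in both mouse lines was Lars2, in EL4-like (−1.59 ± 0.38) and IVA12-like cells (−2.91 ± 0.45).

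**Figure D5:**
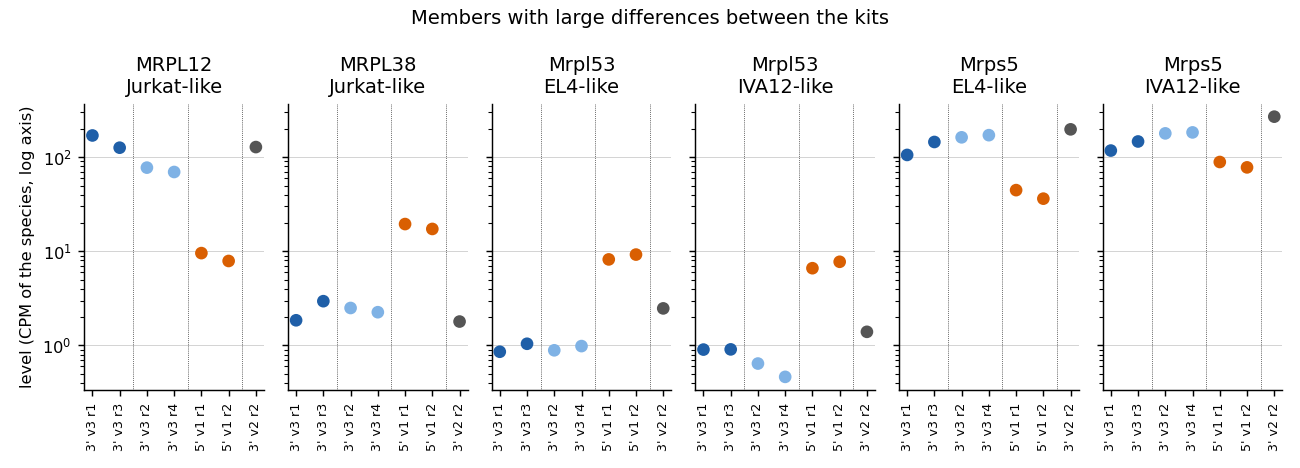
Level of 4 genes in each library (x axis: libraries by kit and replicate, r) in CPM of the cells' species on a log axis (y axis). Dark blue and light blue mark the cell mixtures of 3′ v3, orange 5′ v1 and grey 3′ v2. MRPL12 in Jurkat-like cells falls below 10 CPM only in 5′ v1, MRPL38 and Mrpl53 are highest in 5′ v1, and Mrps5 is lowest there.

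The difference between the mouse lines was not the same in both kits. EL4-like and IVA12-like cells differed by kit for many genes of the set, with EL4-like cells higher relative to IVA12-like cells in 3′ v3 than in 5′ v1. The term for line by kit was positive, past an adjusted p of 0.05 (edgeR), for 42 of 77 genes, where 16.6% of all mouse genes were, and negative for 1, Mrps30, where 13.7% were. The log2 ratio of the summed levels, EL4 over IVA12, was −0.54, −0.30, −0.50 and −0.28 with 3′ v3, −0.85 and −0.89 with 5′ v1 and −0.35 with 3′ v2. No 3′ library reached the 5′ v1 values. Mrpl16 had the largest term (log2 fold change 1.23 ± 0.13 (SE), adjusted p = 1.25e-04). In EL4-like cells it stood at 94.9, 70.1, 92.4 and 72.7 CPM in 3′ v3 and 33.7 and 23.8 CPM in 5′ v1, and in IVA12-like cells at 100.4, 60.8, 99.5 and 61.6 CPM and 75.5 and 65.7 CPM. The 5′ v1 libraries were low in EL4-like cells alone. Mrpl34 followed (log2 fold change 1.21 ± 0.11 (SE), adjusted p = 6.43e-05), with 108, 99.0, 114 and 107 CPM in 3′ v3 and 42.9 and 38.0 CPM in 5′ v1 in EL4-like cells and 425, 351, 399 and 343 CPM and 378 and 347 CPM in IVA12-like cells. For the human lines the term was positive for 0 of 75 genes (0.737% of all human genes) and negative for 2 (0.806%), MRPL41 and MRPS12. At an unadjusted p under 0.05, 17 passed, but the share of all genes at that threshold was not computed, so this count is no result about the set. The median term was −0.45 over the genes of the set and −0.29 over all genes. With 3′ v3 replicates 2 and 4 alone it was negative for 26 of 74 genes (8.19% of all genes), and with replicates 1 and 3 alone for 5 of 76 (4.04%). MRPL41 stood at 187, 116, 169.9 and 109 CPM in 3′ v3 and 189.5 and 195 CPM in 5′ v1 in Jurkat-like cells, and at 355, 247, 285 and 223 CPM and 130.04 and 143 CPM in TALL-104-like cells (log2 fold change −1.71 ± 0.28 (SE), adjusted p = 0.00219). TALL-104-like cells were the higher in each 3′ v3 library and Jurkat-like cells in both 5′ v1 ones. MRPS12 stood at 134, 60.6, 123 and 49.8 CPM in 3′ v3 and 178 and 185 CPM in 5′ v1 in Jurkat-like cells, and at 109, 82.4, 102 and 73.0 CPM and 97.5 and 54.9 CPM in TALL-104-like cells (log2 fold change −1.45 ± 0.35 (SE), adjusted p = 0.0391). Without 5′ v1 replicate 1 the term was positive for 22 mouse genes of the set (7.43% of all genes) and without replicate 2 for 16 (6.71%), and it was called for 0 human genes of the set in both (0.0165% and 0.0250% of all in either direction). Since each kit had its own mixtures, kit and mixture cannot be told apart here either.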

How the data were processed

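The deposited files hold raw UMI counts per gene and barcode, which the authors made with Cell Ranger 3.0.2 on a combined human (hg19) and mouse (mm10) reference, version 1.2.0 of that reference, after downsampling reads. All barcodes were kept in them. The 3′ v2 replicate 1 was not analysed here. Replicate libraries of a kit were compared and none was a duplicate, with chi-square per degree of freedom of at least 1.25. For EL4, IVA12, Jurkat and TALL-104 in turn it was 78.7, 37.5, 28.7 and 3.96 between 3′ v3 replicates 1 and 3. It was 2.95, 2.64, 1.42 and 1.25 between replicates 2 and 4, and 114, 107, 32.1 and 11.4 between replicates 1 and 2. Replicates 1 and 3 thus also differed beyond counting error, though of 1 mixture. The measure grows with depth, so pairs are not on 1 scale. Cells in different libraries shared 1 to 14 barcodes per pair.

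Barcodes with at least 1000 UMIs, over 80% of 1 species and under 10% mitochondrial UMIs were clustered per library and species (scanpy 1.11.5, Leiden, no gene of the set) and named from markers. Clusters with markers of both lines, taken as doublets, and cells over 3 times the median UMIs of their line were left out, rules set after the data were seen. No doublet caller was run. A name rebuilt in this way may differ from the study's. Sums per line and library were tested with edgeR 4.0.16 (R 4.3.3, quasi-likelihood, TMM, filterByExpr) with a library term for lines and without one for kits, and p-values were adjusted over all genes of the species tested. Alternatives were DESeq2 1.42.0, total counts, no filter, stricter cells, single mixtures and each library left out. Cells kept over 3 times the median, both 5′ v1 libraries left out and all alternatives of the line by kit term were chosen after seeing the data. The tests were run on simulated counts of independent libraries with the same spread for each gene and no mixtures. That run cannot show how often they err on libraries that share a mixture. Intervals and floors cover counting error only.

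Genes named are the up to 8 largest changes in each direction that passed and held in each library or between kits, the 5 highest and lowest by mean CPM, and genes of special place. Others named were chosen after their values were seen. The members, lists and tests were chosen with earlier results of these data known.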

Additional observations from a re-analysis of the deposited data

Results flagged for a closer look

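The difference between lines was itself different between the kits, by the line by kit term of edgeR's quasi-likelihood test with Benjamini-Hochberg adjustment, for 23 of 36 mouse and 2 of 26 human genes followed by name. Of all genes, 16.6% had a positive and 13.7% a negative term in mouse, and 0.737% and 0.806% in human. The named genes were chosen largely for the size of their changes in these same data, so their count is not set against those shares. For the human genes, with Jurkat-like against TALL-104-like cells, the log2 term was −1.71 for MRPL41 and −1.45 for MRPS12. Left out in turn, either 5′ v1 library ended both calls. For the mouse genes, with EL4-like against IVA12-like cells, it was −0.40 for Mrps30. Positive terms were 0.38 for Mrpl46, 0.39 for Mrpl12, 0.42 for Mrpl20, 0.43 for Mrpl44, 0.46 for Mrpl24, 0.46 for Mrps14, 0.54 for Mrpl11, 0.56 for Mrps18b, 0.63 for Mrps31, 0.65 for Mrps27, 0.66 for Mrps18c. Higher ones were 0.70 for Mrps25, 0.72 for Mrps18a, 0.81 for Mrps5, 0.81 for Mrpl22, 0.82 for Mrpl17, 0.88 for Mrpl19, 0.90 for Mrps12, 0.94 for Mrpl41, 0.95 for Mrps22, 1.21 for Mrpl34 and 1.23 for Mrpl16. A positive term means that EL4-like cells stood higher against IVA12-like cells in 3′ v3 than in 5′ v1. Kit and cell mixture cannot be told apart.

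Of 127 groups of 4 libraries of 3′ v3 that were tested, 2 had a gap between 1 library and the others that took more of their range than Dixon's critical value, where chance gives about 1 in 20 groups of independent libraries. These libraries came in pairs from 1 mixture each, so that rate need not hold here. MRPS24 in Jurkat-like cells stood at 5.62, 7.49, 40.2 and 8.26 CPM in 3′ v3 replicates 1 to 4, so that the gap of replicate 3 took 0.924 of the range, and at 25.4 and 26.9 CPM in 5′ v1 and 76.1 CPM in 3′ v2. MRPL53 in Jurkat-like cells stood at 5.79, 6.87, 5.82 and 5.76 CPM, with a gap of 0.945 of the range for replicate 2. That library's value rests on 11 UMIs, with an exact Poisson 95% interval of 3.43 to 12.3 CPM, which holds the other values.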

How the results depend on the processing

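Counts of genes called in the line comparisons stayed within 1.5 times of 47 (mouse) and 57 (human) under the alternatives run, except without the library term (29 and 36), and lay between 44 and 49 and between 47 and 59 with a library left out. By direction they moved more. Mouse genes called higher ranged from 2 to 14, against 7, with 13 (4757 of 11743 over all genes) without both 5′ v1 libraries. Human genes called lower ranged from 1 to 4, against 4. Kit counts moved more. So did those over all genes with DESeq2 in IVA12-like cells, at 1107 higher and 837 lower of 11992, against 515 and 572 with edgeR. In EL4-like cells 2288 of all 11934 genes were called higher and 2071 lower. The counts were 3945 and 3862 of 11747 with 3′ v3 replicates 1 and 3, and 4034 and 4102 of 11469 with replicates 2 and 4. Without 1 of the 3′ v3 libraries 2171 to 2268 were higher and 1717 to 2024 lower. With single mixtures the calls over all genes rose in the other lines too. Counts for the genes of the set follow. Against 22 in EL4-like cells, total counts without TMM gave 35, 3′ v3 replicates 1 and 3 gave 66, replicates 2 and 4 gave 48, and leaving out a library 2 to 26. Against 2 in IVA12-like cells, DESeq2 gave 7, total counts 6, the mixtures 55 and 65, and leaving out a library 0 to 2. Against 3 in Jurkat-like cells, the mixtures gave 42 and 67 and leaving out a library 1 to 5. Against 1 in TALL-104-like cells, DESeq2, total counts and no filter gave 2 each, the mixtures 11 and 17, and leaving out a library 0 to 2. Of the genes followed by name, the line by kit term was called for 11 to 24 mouse (23) and 0 to 3 human genes (2) with a library left out, and for human genes for 1 with total counts and 11 with replicates 2 and 4. The cause was not tested, but fewer libraries enter where 1 is left out. No called value of a named gene reversed. The summed ratios moved by less than 1 SD, a limit that leaving out libraries could hardly pass. The direction between kits did change in 2 lines. In 3′ v3, IVA12-like sums averaged 11568 CPM against 12686 CPM in 5′ v1, but replicates 1 and 3 alone lay above both 5′ v1 libraries. Jurkat-like sums averaged 7961 CPM against 9770 CPM, and replicates 1 and 3 alone lay above there too. No paired analysis was possible because no library number in the labels is shared between kits, while lines were compared within libraries. TALL-104-like sums of 5′ v1, from 73 and 32 cells, limit what is detectable there.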
